A study of Mus musculus with 6 samples.

Results

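Mitosis needs a large set of proteins that are made shortly before the cell divides: kinases that start it, motors and linkers that build the spindle, kinetochore proteins that tie chromosomes to microtubules, and a ubiquitin machine that ends it. The transcripts of these genes rise in G2 and fall after division, so in a mixed population their level follows both the share of cells in G2 and M and the amount each such cell makes. In the fetal liver, blood stem cells divide often, unlike most of their adult counterparts. A list of 38 such genes, given by exact symbol, was followed in hematopoietic stem cells (HSCs) with and without Dpy30. Dpy30 belongs to the shared core of the SET1 and MLL enzymes, the main methyltransferases of histone H3 lysine 4. All 38 symbols were found among the 38926 in the count lists, and all 38 passed the filter on low counts, as did 13646 genes in total.

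The cells were sorted by HSC surface markers from livers of E14.5 embryos, and 3 litters each gave 1 control and 1 knockout library. Controls were Vav-Cre; Dpy30F/+ and knockouts were Vav-Cre; Dpy30F/-. Every embryo thus carried the Vav-Cre transgene, which expresses Cre recombinase in blood-forming cells, and 1 floxed Dpy30 allele, so the comparison is with heterozygous cells where Cre has acted. The labels do not say whether a library pooled embryos, and cells in which Cre did not act cannot be set apart in these counts. The comparison addresses what fetal HSCs transcribe after Cre-driven loss of Dpy30.

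Gene counts, in units of 1000000 per library, came to 31.9 to 43.4, of which 49.2% to 67.7% were from mitochondrially encoded genes. Levels are given as CPM (counts per 1000000 counts) after trimmed-mean (TMM) scaling. Dpy30 lay at 24.2 to 31.6 CPM in controls and at 5.95 to 13.7 CPM in knockouts, with no overlap. Its transcript was thus still present, at 34.2% of the control mean (edgeR adjusted p = 0.672, DESeq2 adjusted p = 0.126). Knockout 3 stood apart from the other 5 libraries. A list of 16 stem and progenitor markers summed to 465 CPM there, against 824 to 869 CPM in controls and 1006 and 1206 CPM in knockouts 1 and 2. The 13 macrophage markers, all with counts in every library, summed to 363 to 600.2 CPM in controls and to 890 (knockout 1), 373 (knockout 2) and 1766 CPM (knockout 3). The 9 granulocyte markers summed to 59.5 to 124 CPM in controls and 69.6, 148 and 403 CPM in knockouts 1 to 3. By litter, the median difference of the macrophage markers in log2 CPM (knockout minus control) was 1.67, 1.32 and 1.82. Of these 13 markers, 8 were higher in the knockout in all 3 litters, against 12.3% of all genes tested. For the 6 granulocyte markers tested the medians were 1.23, 1.21 and 2.44. Leaving out knockout 3 thus does not remove the difference in these medians. The sums overlapped without it, as the macrophage sum of knockout 2 and the granulocyte sum of knockout 1 lay within the range of the controls. The part of these cell types in the mitotic levels was not tested, and results are also given without knockout 3.

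The mitotic genes were lower in the knockout on balance, by a small amount, and no single gene passed the test across all genes. In edgeR's quasi-likelihood test 0 of the 38 had an adjusted p under 0.05, and 0 of all 13646 did (0% called), with 888 genes at an unadjusted p under 0.05 (6.51%). DESeq2 also called 0 of the 38, against 0.256% of all genes on the lower and 0.762% on the higher side (1.02% in all). With litter as a block, edgeR called 0 of the 38 and 0% of all genes, with 4.54% at an unadjusted p under 0.05. DESeq2 with litter as a block called 1 of the 38, Cdc20, on the lower side, against 0.865% of all genes lower, 1.11% higher and 1.98% in all. Of the 38 genes, 31 had a log2 fold change (knockout over control) below 0, or 81.6%, against 49.2% of all genes tested. The median log2 fold change was -0.33, against 0.01 for all genes tested. Without knockout 3 it was -0.31, again with 31 genes below 0. Leaving out each library in turn gave from 26 genes below 0 (without control 3) to 32 (without control 1). Because RNA was measured in bulk, fewer dividing cells and less mitotic RNA per cell cannot be told apart. These genes rise and fall together through the cell cycle and are not independent replicates of a genotype effect.

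An unadjusted p under 0.05 with a lower level in the knockout was found for 4 of the 38 genes, or 10.5%, against 2.24% of all genes tested. These were Cdc20, Bub1b, Ube2c and Ttk. On the higher side there was none, against 4.26% of all genes. Every knockout lay below every control for 7 of the 38, or 18.4%, against 7.74% of all genes, and every knockout lay above every control for 1, against 6.39%. With litter as a block in edgeR, the 4 genes at an unadjusted p under 0.05 became 2, Cdc20 and Ttk, against 1.81% of all genes. DESeq2 with the block gave the same 2 of the 38 genes, against 6.71% of all genes. In that fit the share of the list was below the background. Without control 2 or without control 3 the count became 1, Cdc20, against 1.46% and 1.60% of all genes. Under scaling by library size alone, the 7 without overlap became 1, or 2.63%, against 4.06% of all genes, so the list was not above the background there. That scaling moved the median of all genes to 0.23 and upper-quartile scaling moved it to -0.10, while the 38 genes stayed below it by 0.36 and 0.34, as they did by 0.34 under TMM. Over all alternatives, their median minus that of all genes ran from -0.45 (without control 1) to -0.24 (limma-voom). It was -0.26 with litter as a block in both edgeR and DESeq2, and -0.28 without knockout 3.

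**Figure D1:**
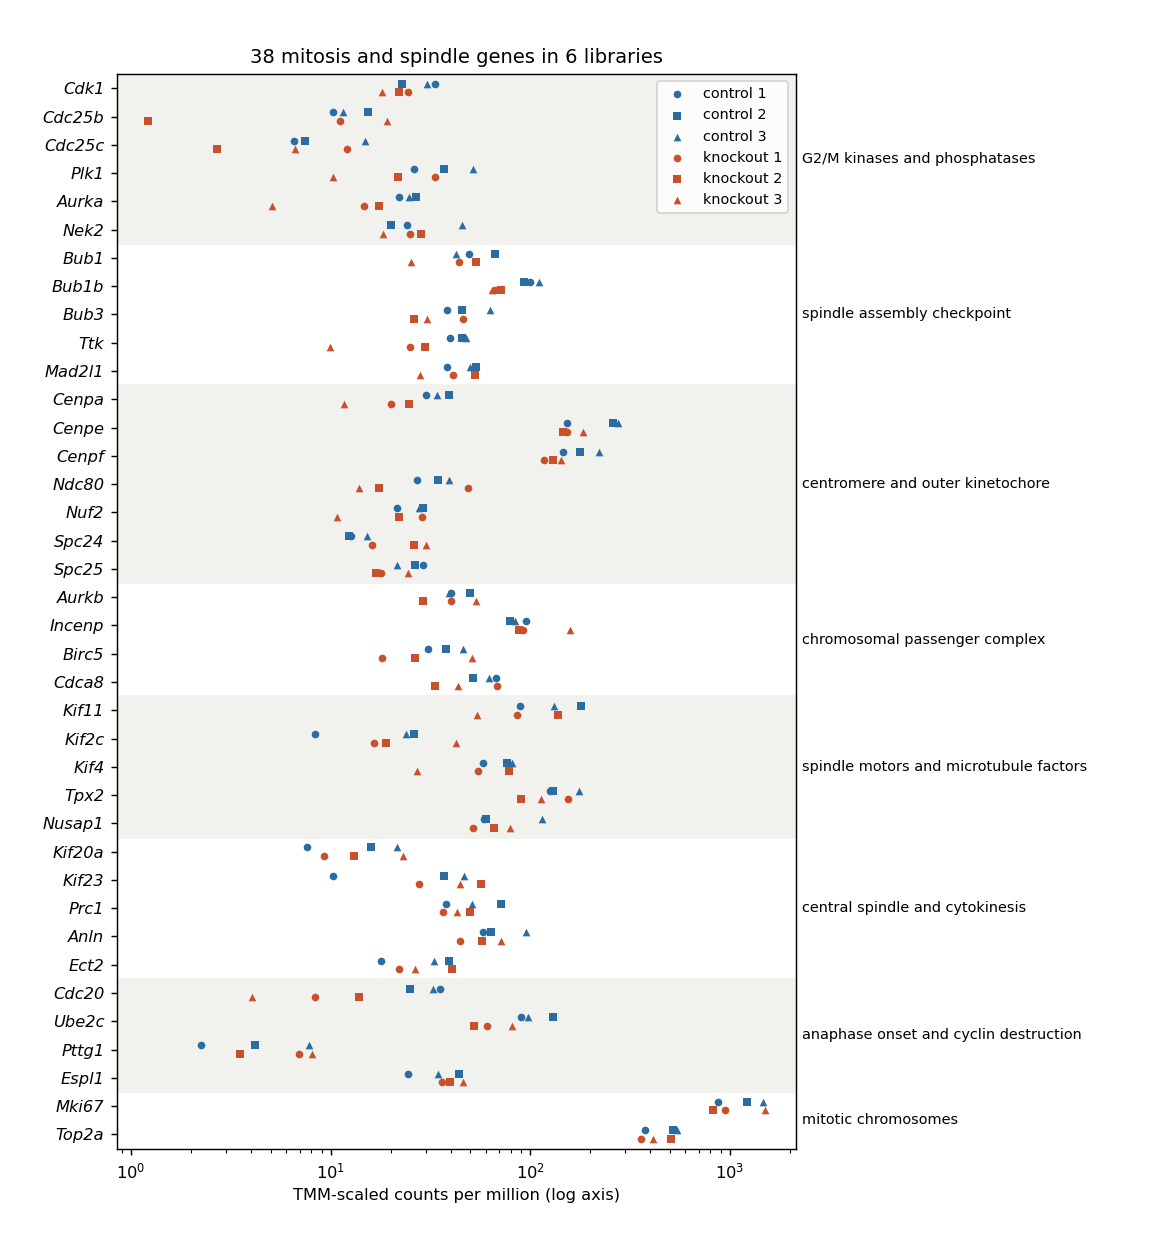
Level of each of the 38 genes in each of the 6 libraries, in TMM-scaled CPM on a log axis, with controls in blue, knockouts in orange and 1 marker shape per litter. Knockouts and controls overlap for most genes, and lie apart for Cdc20, Bub1b, Ube2c, Ttk, Aurka, Cenpa and Cenpf (knockouts lower) and for Spc24 (knockouts higher).

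The difference came from litters 2 and 3. Averaged over the 38 genes, controls 1 to 3 stood at 5.23, 5.62 and 5.77 in log2 CPM, and knockouts 1 to 3 at 5.24, 5.16 and 5.15. Control 1 thus lay with the knockouts, and the groups overlapped. Within litter 1, 19 of the 38 genes were lower in the knockout, with a median difference of -0.01 in log2 CPM. In litter 2 the count was 31 with a median of -0.45, and in litter 3 it was 27 with a median of -0.56. Over all genes tested the medians in litters 1 to 3 were 0.02, -0.08 and -0.17. The 38 genes therefore lay below the general run of genes in litters 2 and 3 and level with it in litter 1. A lower level in the knockout in all 3 litters was found for 13 genes, or 34.2%, against 15.9% of all genes, and a higher level in all 3 for 1, against 12.3%.

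Knockout 3 held the lowest level of the 6 libraries for 14 of the 38 genes and the highest for 10. Over all genes tested it held the lowest for 29.1% and the highest for 25.6%, so the library was extreme in both directions across the transcriptome. Control 3 held the highest level for 13 of the 38 genes and the lowest for 0, against 12.8% and 9.1% of all genes. Control 1, where mitochondrially encoded genes took 67.7% of counts, held the lowest level for 6 and the highest for 3. Over all genes tested its shares were 14.9% and 15%.

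**Figure D2:**
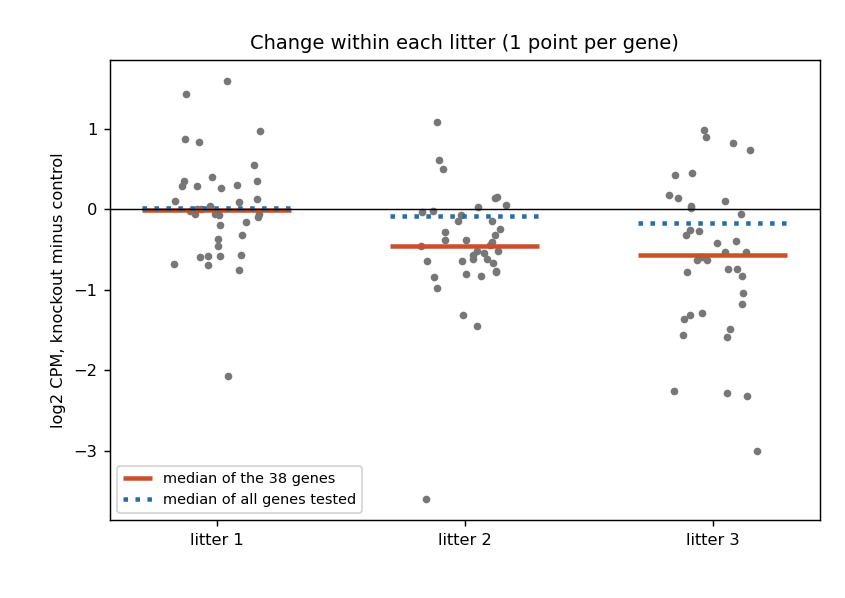
Difference in log2 CPM between the knockout and the control of each litter, 1 grey point per gene, with the median of the 38 genes (solid orange) and of all genes tested (dotted blue). The medians of the 38 genes are -0.01, -0.45 and -0.56 in litters 1 to 3.

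The 4 genes with an unadjusted p under 0.05 act at the gate to anaphase. Their RefSeq promoters (build GRCm38.p6) are shown first because they share 2 elements that the choice of the list did not use. Only promoters with a match to the second element near the start could be shown, and all 4 genes had one. The CCAAT box is bound by the factor NF-Y. The cell cycle homology region (CHR) is bound by MuvB complexes, which hold these genes silent outside G2 and M and activate them there. Each sequence runs 5′ to 3′ on the gene's strand from 250 bases before the transcript start to 50 after it. Capitals mark CCAAT on either strand (ATTGG on the other), and TTTGAA or TTCGAA on either strand (TTCAAA on the other) within 50 bases of the start. They lie at chr4:118437294-118437593 (minus strand) for Cdc20, chr2:118597961-118598260 (plus) for Bub1b, chr2:164769679-164769978 (plus) for Ube2c and chr9:83834439-83834738 (plus) for Ttk.
Cdc20: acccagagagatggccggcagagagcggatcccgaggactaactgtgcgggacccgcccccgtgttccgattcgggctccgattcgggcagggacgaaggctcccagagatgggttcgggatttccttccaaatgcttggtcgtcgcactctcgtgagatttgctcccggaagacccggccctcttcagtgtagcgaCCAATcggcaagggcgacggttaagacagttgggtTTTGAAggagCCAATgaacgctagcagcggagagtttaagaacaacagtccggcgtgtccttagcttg
Bub1b: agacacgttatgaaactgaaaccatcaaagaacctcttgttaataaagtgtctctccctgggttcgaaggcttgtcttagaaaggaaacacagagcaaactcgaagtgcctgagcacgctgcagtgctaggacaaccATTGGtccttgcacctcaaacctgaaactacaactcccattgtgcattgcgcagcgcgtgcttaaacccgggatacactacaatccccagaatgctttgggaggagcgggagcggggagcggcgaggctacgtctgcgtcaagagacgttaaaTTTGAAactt
Ube2c: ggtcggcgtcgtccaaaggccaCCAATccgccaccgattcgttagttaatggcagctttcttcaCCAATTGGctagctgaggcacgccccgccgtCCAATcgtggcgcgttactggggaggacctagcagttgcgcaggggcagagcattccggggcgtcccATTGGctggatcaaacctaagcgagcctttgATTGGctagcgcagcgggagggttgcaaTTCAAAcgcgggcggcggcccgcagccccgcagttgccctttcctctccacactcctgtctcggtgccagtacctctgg
Ttk: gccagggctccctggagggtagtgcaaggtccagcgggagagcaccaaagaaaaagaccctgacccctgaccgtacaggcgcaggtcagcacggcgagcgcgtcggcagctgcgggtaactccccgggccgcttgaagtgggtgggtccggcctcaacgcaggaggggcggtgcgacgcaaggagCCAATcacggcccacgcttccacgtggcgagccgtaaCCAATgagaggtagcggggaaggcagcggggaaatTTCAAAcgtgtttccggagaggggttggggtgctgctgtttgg
In Cdc20 the CHR match begins 18 bases before the start, with CCAAT matches at 53 and 8 bases before it. In Bub1b it begins 40 bases after the start and in Ttk 7 after it. Ube2c has the match 29 bases before the RefSeq start and 6 CCAAT matches, 2 of which overlap. By the GENCODE position of Ube2c given below, its CHR match lies just inside the gene.

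Cdc20 (chromosome 4, 118432901 to 118437352), which activates the anaphase-promoting complex, showed the largest difference of the 38 genes. Controls 1 to 3 gave it 1025, 930 and 1437 counts, or 35.4, 24.9 and 32.6 CPM. Knockouts 1 to 3 gave it 332, 504 and 141 counts, or 8.35, 13.9 and 4.03 CPM. Every knockout lay below every control, and the lowest value was in knockout 3. The knockout mean was 28.3% of the control mean (31.0 ± 5.45 against 8.76 ± 4.94 CPM, SD, n = 3 each). The log2 fold change was -1.82 (SE 0.52, edgeR unadjusted p = 0.0082, adjusted p = 0.668). With litter as a block, DESeq2 gave -1.96 and an adjusted p of 0.0458, while without the block its adjusted p was 0.0778. Without knockout 3 the edgeR log2 fold change was -1.46 (adjusted p = 0.607). Of the 50-base words in Cdc20's annotated transcripts, 10.6% also occur in transcripts of other genes, Gm7856 and the overlapping Elovl1 on the other strand among them, and how such reads were counted is not given in the sources used here.

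Ube2c (chromosome 2, 164769898 to 164778822), the ubiquitin-conjugating enzyme that works with the same complex, lay at 90.1, 129.9 and 97.6 CPM in controls 1 to 3 and 60.7, 52.4 and 81.5 CPM in knockouts. The groups did not overlap, and the gap between control 1 and knockout 3 was the narrowest. Its log2 fold change was -0.71 (SE 0.27, edgeR unadjusted p = 0.0301, adjusted p = 0.733). Its exons overlap those of Tnnc2 on the other strand over 22.8% of their length, and the counting is not stated to use strand. The other members of the anaphase group did not follow them. Securin, Pttg1, which holds separase inactive, had 2.24 to 7.83 CPM in controls and 3.53 to 8.05 CPM in knockouts (log2 fold change 0.37, SE 0.80). Separase, Espl1, which cleaves cohesin, had 24.6 to 43.8 against 36.2 to 46.2 CPM (0.25, SE 0.32). Both overlapped between genotypes.

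Bub1b (chromosome 2, 118598211 to 118641591) encodes BubR1, a part of the mitotic checkpoint complex that restrains Cdc20. Its levels were close together within each genotype, at 99.4, 92.7 and 110.3 CPM in controls 1 to 3 and 66.5, 71.3 and 64.2 CPM in knockouts. The knockout mean was 66.8% of the control mean, and the groups did not overlap. The log2 fold change was -0.58 (SE 0.21, edgeR unadjusted p = 0.0250, adjusted p = 0.729), and leaving out any 1 library gave -0.64 to -0.51.

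Ttk (chromosome 9, 83834689 to 83872389), the MPS1 kinase that sets off the checkpoint at unattached kinetochores, lay at 39.7, 45.5 and 47.7 CPM in controls and 24.9, 29.7 and 9.91 CPM in knockouts 1 to 3. All 3 knockouts were below the controls, knockout 3 farthest. The log2 fold change was -1.04 (SE 0.44, edgeR unadjusted p = 0.0436, adjusted p = 0.759) and was -0.69 without knockout 3. The remaining checkpoint genes were lower on average but overlapped. Bub1, the kinase that recruits them to the kinetochore, ranged over 42.3 to 66.8 CPM in controls and 25.4 to 53.4 CPM in knockouts. Bub3, their shared adaptor, ranged over 38.2 to 63.0 and 26.1 to 45.9 CPM. Mad2l1, the subunit that captures Cdc20, ranged over 38.3 to 53.6 and 28.0 to 53.1 CPM. All 5 checkpoint genes had a log2 fold change below 0, with a median of -0.52.

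**Figure D3:**
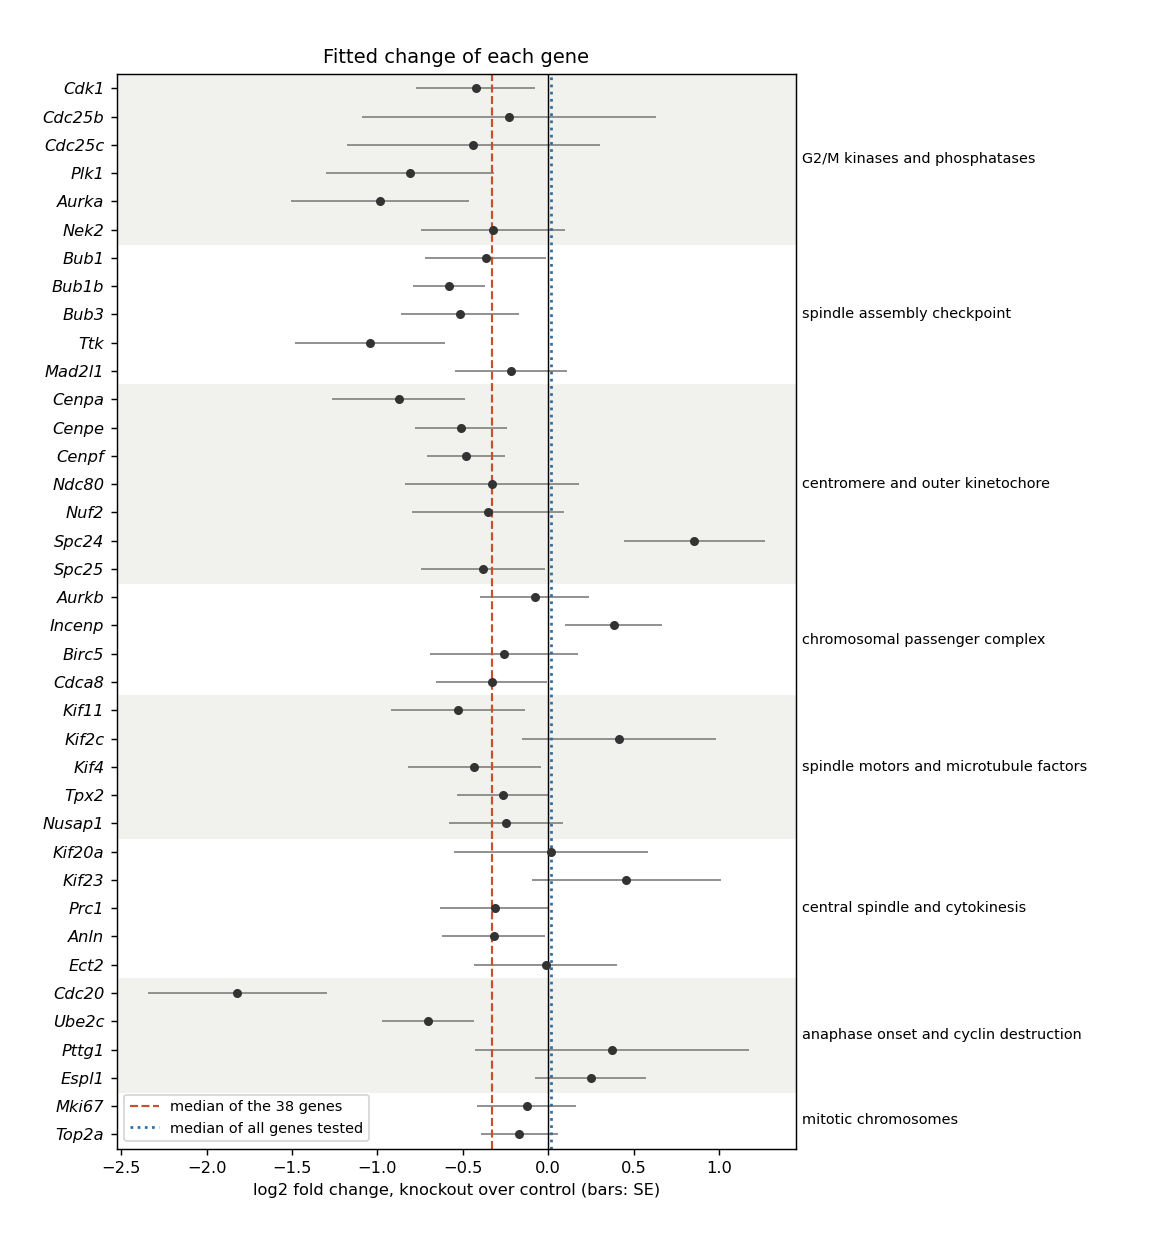
Fitted log2 fold change (knockout over control) of each of the 38 genes with its SE, grouped by role. The dashed line is the median of the 38 genes, -0.33, and the dotted line that of all genes tested, 0.01, and no gene has an adjusted p under 0.05 in edgeR.

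All 6 G2/M kinases and phosphatases also had a log2 fold change below 0, with a median of -0.43, and none reached an unadjusted p under 0.05. Aurka (chromosome 2, 172356190 to 172370535), the kinase of the spindle poles, was the 1 of them without overlap, at 22.1, 26.8 and 24.7 CPM in controls 1 to 3 and 14.6, 17.5 and 5.06 CPM in knockouts. It differed by -0.98 on the log2 scale (SE 0.52, edgeR adjusted p = 0.797), or -0.60 without knockout 3. Plk1, the kinase of mitotic entry and exit, ranged over 26.0 to 51.5 CPM in controls and 10.3 to 33.3 CPM in knockouts (-0.81, SE 0.49). Cdk1, the kinase that drives entry, ranged over 22.9 to 33.4 and 18.1 to 24.5 CPM (-0.43, SE 0.35). Its groups overlapped by the lowest control alone. Nek2, which parts the centrosomes, ranged over 19.95 to 45.6 and 18.3 to 28.4 CPM (-0.32, SE 0.42).

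The phosphatases that switch Cdk1 on varied more than the genotypes differed. Cdc25b had 10.3, 15.4 and 11.5 CPM in controls and 11.2, 1.21 and 19.3 CPM in knockouts 1 to 3. Knockout 2 alone was low, with 44 counts, and the log2 fold change turned from -0.23 to 0.30 without it. Cdc25c had 6.56 to 14.9 CPM in controls and 2.70 to 12.1 CPM in knockouts, with its lowest value in the same library.

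At the centromere, Cenpa (chromosome 5, 30666777 to 30674830), the histone H3 variant that marks the site of the kinetochore, lay at 30.1, 39.2 and 34.3 CPM in controls 1 to 3 and 20.2, 24.7 and 11.6 CPM in knockouts. The knockout mean was 54.5% of the control mean, with no overlap (log2 fold change -0.88, SE 0.39, edgeR unadjusted p = 0.0548, adjusted p = 0.775). Cenpf (chromosome 1, 189640606 to 189688086), a large protein of the outer kinetochore, lay at 146, 177 and 222 CPM in controls and 117, 130.5 and 143 CPM in knockouts. Its groups were adjacent without overlap (-0.48, SE 0.23, edgeR adjusted p = 0.775). Cenpe, the kinesin that carries chromosomes to the equator, ranged over 153 to 277 CPM in controls and 146.5 to 184 CPM in knockouts, with control 1 among the knockouts (-0.51, SE 0.27).

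The 4 subunits of the Ndc80 complex, which grips microtubules, did not keep the same proportions. Spc24 (chromosome 9, 21755442 to 21760303) was the 1 member of the 38 whose knockouts all lay above the controls, at 12.6, 12.4 and 15.1 CPM in controls 1 to 3 and 16.2, 26.3 and 30.1 CPM in knockouts. Its log2 fold change was 0.86 (SE 0.41, edgeR unadjusted p = 0.0715, adjusted p = 0.778). Its partner Spc25 ranged over 21.5 to 28.9 CPM in controls and 16.9 to 24.3 CPM in knockouts. Ndc80 ranged over 27.2 to 39.1 CPM in controls, while knockout 1 had 48.6 CPM and knockouts 2 and 3 had 17.5 and 13.9 CPM. Nuf2 was likewise lowest in knockout 3, with 21.5 to 29.0 CPM in controls and 28.6, 22.0 and 10.7 CPM in knockouts 1 to 3. Spc24 was below the mean of the other 3 subunits by 1.02, 1.27 and 0.91 in log2 CPM in controls 1 to 3 and by 0.85 in knockout 1, and above it by 0.49 and 0.97 in knockouts 2 and 3. This contrast was drawn after the values were seen and has no test.

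The chromosomal passenger complex, which corrects faulty attachments and then directs cytokinesis, showed little difference between genotypes. Incenp, its scaffold and the member with the highest CPM, lay at 95.6, 78.9 and 84.2 CPM in controls and 91.7, 87.9 and 158 CPM in knockouts 1 to 3. Knockout 3 alone was high, and the log2 fold change of 0.38 (SE 0.28) was 0.07 without it. Its kinase Aurkb ranged over 39.2 to 50.1 and 29.2 to 53.5 CPM. Survivin, Birc5, which docks the complex on chromatin, ranged over 30.7 to 46.2 and 18.1 to 51.3 CPM, and borealin, Cdca8, over 51.8 to 67.7 and 33.2 to 68.0 CPM. Of these 4 genes, 0 were without overlap and 0 reached an unadjusted p under 0.05.

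Among the spindle motors and microtubule factors, 4 of 5 genes had a log2 fold change below 0, with a median of -0.26. Tpx2, which activates Aurka on the spindle, lay at 125, 130.2 and 175 CPM in controls and 155, 89.8 and 114 CPM in knockouts 1 to 3, with knockout 1 between the controls. Kif11, the motor that pushes the poles apart, ranged over 89.3 to 179 CPM in controls and 54.0 to 138 CPM in knockouts (-0.53, SE 0.39). Kif4, an X-linked chromokinesin, ranged over 58.0 to 81.5 and 27.2 to 78.1 CPM (-0.43, SE 0.39), and Nusap1, a microtubule bundler, over 59.0 to 115 and 51.7 to 79.5 CPM. Kif2c, which takes microtubules apart at the centromere, ranged over 8.36 to 26.2 and 16.5 to 42.4 CPM. Its log2 fold change of 0.42 turned to -0.12 without knockout 3.

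The cytokinesis genes had a median log2 fold change of -0.01, the nearest to 0 of the 8 role groups. Anln, the actin-binding anillin of the contractile ring, lay at 57.7, 63.7 and 95.4 CPM in controls and 44.6, 57.6 and 71.5 CPM in knockouts 1 to 3. Each knockout was below the control of its litter, although the groups overlapped (-0.32, SE 0.30, edgeR adjusted p = 0.901). Prc1, which bundles the central spindle, was also lower in each litter, ranging over 37.9 to 71.6 and 36.5 to 50.05 CPM. Ect2, which activates RhoA at the furrow, ranged over 17.9 to 39.0 and 21.9 to 40.7 CPM (-0.01, SE 0.42). Of the kinesins of the central spindle, Kif23 ranged over 10.3 to 46.5 and 27.7 to 56.9 CPM (0.46, SE 0.55) and Kif20a over 7.60 to 21.4 and 9.28 to 23.1 CPM (0.02, SE 0.57). For both, control 1 was the lowest of the 6 libraries. Exons of Kif20a overlap those of Cdc23 on the other strand over 29.3% of their length.

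Mki67 and Top2a differed little between genotype means, although the log2 fold change of Mki67 was -0.42 without knockout 3. Mki67, which coats mitotic chromosomes and is present through the whole cycle, lay at 873, 1215 and 1474 CPM in controls and 943, 821 and 1499 CPM in knockouts 1 to 3. Its highest and its lowest value were both in knockouts (log2 fold change -0.13, SE 0.29, edgeR adjusted p = 0.967). Top2a, the topoisomerase that untangles sister chromatids, ranged over 376 to 544 CPM in controls and 359 to 508 CPM in knockouts (-0.17, SE 0.23). Per kilobase of merged exons, control means ran from 118 CPM for Mki67, 53.2 for Top2a and 40.7 for Ube2c down to 2.38 for Pttg1 and 1.96 for Cdc25c. Cdc20 stood at 16.6 CPM per kilobase in controls and 4.69 in knockouts, near Plk1 in controls (17.3) and near Ttk in knockouts (4.37).

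The promoter elements shown for the leading genes were common in the list. By symbol, 32 of the 38 genes matched RefSeq, with 35 promoters of 300 bases. Aurkb, Cdc25c, Incenp, Kif20a, Spc24 and Tpx2 did not match. TTTGAA or TTCGAA, on either strand, was found in 80% of these promoters and in 19.2% of all 32841 RefSeq promoters of that length. Within 50 bases of the start the shares were 71.4% and 5.30%. CCAAT on either strand was found in 77.1% and 37.4%, and both elements together in 71.4% and 7.52%. The matches near the start began between 43 bases before and 40 after it, 9 before and 17 at or after it, whereas 56 of 59 CCAAT matches began before it. A match is a run of letters and not a measured binding site.

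**Figure D4:**
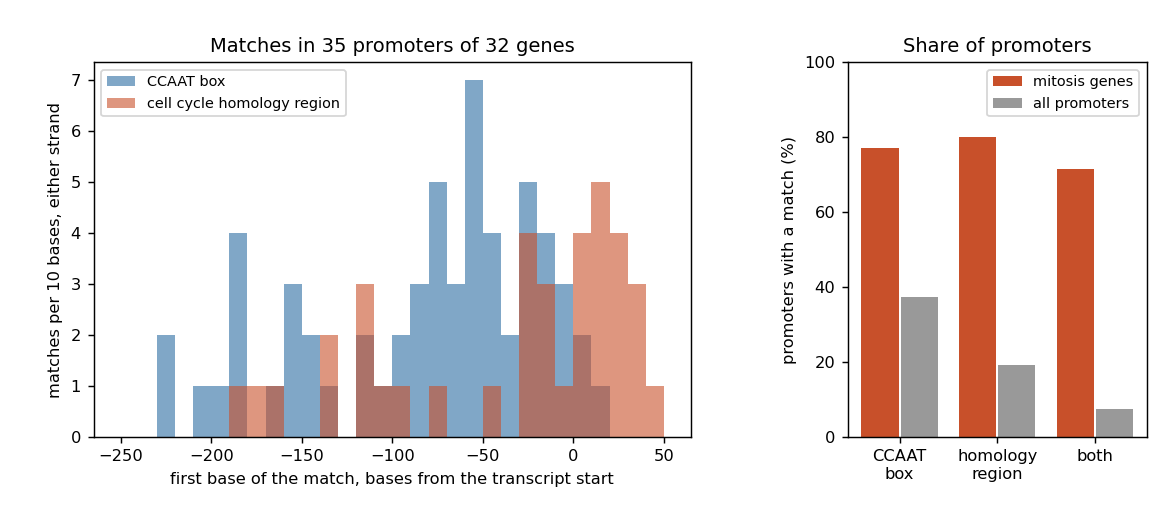
Left, position of CCAAT box and cell cycle homology region matches in 35 promoters of 32 of the genes, in bases from the transcript start. Right, share of promoters with a match, for these promoters (orange, 77.1%, 80% and 71.4%) and for all RefSeq promoters (grey, 37.4%, 19.2% and 7.52%).

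The 23 genes of the list with a CHR match within 50 bases of the start had a median log2 fold change of -0.43, with 21 below 0. The 9 with a promoter but no such match, among them Mki67, Nuf2 and Pttg1, had a median of -0.25, with 7 below 0. Outside the list, 384 tested genes carried a match near the start, and their median was -0.08, with 54.9% below 0. The 8782 tested genes with a promoter and no match near the start had a median of 0.04, with 47.8% below 0. These are descriptions of the fitted values, with no test.

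A further 116 mitotic genes from a list made for this work were all tested, and 0 had an adjusted p under 0.05 in edgeR. Of these, 69 were lower and 47 higher, with a median log2 fold change of -0.15, about midway between that of all genes and that of the 38. An unadjusted p under 0.05 was found for 7 on the lower side and 2 on the higher, against 2.24% and 4.26% of all genes. Every knockout lay below every control for 14 of them, and above for 3, against 7.74% and 6.39% of all genes. The largest medians on the lower side were those of the inner centromere genes (-0.22 over 17) and of the G2/M regulators (-0.21 over 18), whereas the anaphase-promoting complex (0.01 over 16) and condensin (0.01 over 8) were level.

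Zwilch, a kinetochore protein of the complex that brings dynein, lay at 45.5, 38.3 and 25.6 CPM in controls 1 to 3 and 13.03, 11.9 and 18.5 CPM in knockouts, without overlap (log2 fold change -1.33, SE 0.39, edgeR unadjusted p = 0.009, adjusted p = 0.672). Ncapg2, a subunit of condensin II, lay at 80.5, 81.0 and 80.3 CPM in controls and 39.2, 51.6 and 47.9 CPM in knockouts (-0.80, SE 0.24, edgeR adjusted p = 0.672). The 3 controls differed by less than 1 CPM. Mybl2, the B-Myb factor that activates genes with a CHR together with MuvB, had 31.5, 21.1 and 32.4 CPM in controls and 9.89, 19.1 and 4.97 CPM in knockouts (-1.32, SE 0.55, edgeR adjusted p = 0.758). Hmmr, a spindle protein, and Cenph, of the inner kinetochore, were also without overlap on the lower side (-0.74 and -1.15). On the higher side, Mlf1ip, which encodes the inner kinetochore protein CENP-U, lay at 7.87, 7.35 and 5.76 CPM in controls and 9.69, 27.5 and 26.3 CPM in knockouts (1.60, SE 0.55, edgeR adjusted p = 0.721). Haus4, of the augmin complex that branches spindle microtubules, was likewise above the controls in all 3 knockouts (1.25, SE 0.49).

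Genes of DNA replication, the step before mitosis, were also counted. Of 37 genes of replication licensing and the fork, 36 were tested, with a median log2 fold change of -0.27 and 25 below 0. Every knockout lay below every control for 8 of them, against 7.74% of all genes, and 4 had an unadjusted p under 0.05 on the lower side, against 2.24%. In edgeR 0 passed adjustment. By litter their medians were -0.20, 0.08 and -0.79. Litter 2, where the 38 mitotic genes had a median of -0.45, thus did not share the lower level. The 116 further mitotic genes had medians of -0.19, -0.04 and -0.33, against 0.02, -0.08 and -0.17 for all genes tested. In litter 2 they did not share the lower level of the 38 genes either. Of 7 CDK inhibitors 5 were tested, with a median of 0.88. Cdkn1a, which encodes p21 and was named here after its values were seen, was the 1 with an unadjusted p under 0.05 (1.93, 2.995 and 1.45 CPM in controls 1 to 3 against 33.5, 92.5 and 164 CPM in knockouts). Its edgeR adjusted p was 0.452, while DESeq2 gave an adjusted p of 2.19e-18, and of 1.1e-19 with litter as a block. From knockout 1 to 3 the mitotic average fell by small steps (5.24, 5.16 and 5.15 in log2 CPM). The summed CPM of the 38 genes rose instead (2879, 2936 and 3536 CPM), so their order beside Cdkn1a depended on the measure. A link between Cdkn1a and the mitotic genes was not tested.

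Markers of other cells could also carry mitotic RNA into these libraries. The 10 erythroid markers found summed to 930, 1746 and 1796 CPM in controls 1 to 3 and 608, 836 and 1694 CPM in knockouts. The 38 mitotic genes summed to 2913, 3867 and 4325 CPM in controls and 2879, 2936 and 3536 CPM in knockouts. Control 1 and knockouts 1 and 2 were thus the lowest libraries in both sums. Without Mki67 and Top2a the mitotic sum was 1663 to 2308 CPM in controls and 1577, 1607 and 1624 CPM in knockouts. The place of knockout 3 among the libraries therefore depended on the measure. Megakaryocyte markers (7 genes) summed to 107 to 161 CPM in controls and 105 to 199.6 CPM in knockouts. Mast cell and basophil (6 genes), hepatocyte (8) and lymphoid markers (8) each summed to at most 23.0 CPM in any library, with Cd3e and Cd3g at 0 counts in every library. The part of erythroid cells in the mitotic levels was not tested.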

How the data were processed

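The 38 genes and every other list were chosen with earlier results of these data known. Libraries made after 2 rounds of poly(A) selection of sorted cells were counted by the authors, who deposited raw, whole-number counts of reads by gene symbol. Per the submitters' processing notes, the tools named were CASAVA 1.8.4, TopHat2, Picard 1.126, HTSeq 0.6.0, DESeq 3.0 and bedtools 2.17.0, on mm10, and their roles, the annotation and the use of strand are not given in the sources used here. The 5 closing tallies of unassigned reads (41.0% to 51.0% of all reads) were left out. Reads with more than 1 alignment are among these, so genes with close copies may be undercounted.

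Genes were kept with filterByExpr, scaled by TMM and tested with edgeR 4.0.16 (glmQLFit, glmQLFTest, R 4.3.3) between genotypes, with Benjamini-Hochberg adjustment over all 13646 genes and a threshold of 0.05. The standard error (SE) came from the fitted difference and its F statistic. Differences in log2 CPM use a prior count of 2. DESeq2 1.42.0 and limma 3.58.1 (voom) were alternatives, beside other scalings and filters and leaving out each library. The procedure was tested on simulated data. Litter is given in the labels, which makes each litter a pair, and its members' deviations from the genotype means correlated at -0.02, -0.08 and 0.003 over genes in litters 1 to 3.

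The rule for naming covered all 38 genes, with values in every library for those at an unadjusted edgeR p under 0.05 or without overlap, or else the most abundant of a role group. It named up to 2 further genes per list, those with the smallest p, and up to 4 promoters, those with a match within 50 bases of the start in order of p. Values for all libraries of Cdc25b, Ndc80 and Nuf2 were added after they were seen. Positions and exon lengths are from GENCODE M21 (GRCm38) and promoters from RefSeq. Transcript starts can differ between these sources. For 24 of the 35 promoters, the bases just after the RefSeq start occur in a GENCODE transcript of the gene. Places before or after the start are by RefSeq. Exact permutation of 3 against 3 libraries cannot go below p = 0.1 and was not used. No molecular tags are described, and whether copies made by PCR were removed before counting is not given in the sources used here.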

Additional observations from a re-analysis of the deposited data

How the results depend on the processing

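Of the 38 genes, 27 kept their direction under all 16 alternatives, which were other scalings, filters and tools, the replicate block and leaving out each library. Alternatives to edgeR's main test changed how many genes passed: DESeq2 called 139 (35 lower, 104 higher), DESeq2 with the replicate block 270 (118 lower, 152 higher), of which 1 was on the list, and edgeR called 1, higher, both without a filter on low counts and with at least 10 counts in every sample. The replicate block, which pairs the genotypes by litter, changed no call on adjusted p in edgeR. The other 11 changed direction under at least 1. Ect2 was at 0.011 with the replicate block in edgeR, 0.0044 in DESeq2, 0.029 in DESeq2 with the block, 0.0046 with DESeq2's size factors, 0.0024 without mitochondrially encoded genes and 0.10 when scaled by library size. The last scaling also put Aurkb at 0.11 and Mki67 at 0.031. Kif20a was at -0.14 with upper-quartile scaling, -0.0045 with at least 10 counts in every sample and -0.065 in voom. Leaving out 1 library gave log2 fold changes of -0.31 to 0.23 for Ect2, -0.41 to 0.36 for Kif20a, -0.31 to 0.11 for Aurkb, -0.42 to 0.058 for Mki67, -1.05 to 0.023 for Cdc25c, -0.54 to 0.11 for Nek2, -0.41 to 0.14 for Nusap1, -0.76 to 0.022 for Birc5, -0.98 to 0.30 for Cdc25b, -0.45 to 0.0029 for Mad2l1 and -0.12 to 0.68 for Kif2c. The cause was not tested. The median over the 38 genes stayed between -0.41 and -0.25 when 1 library was left out, the latter without control 3. On leaving out 1 library, 11, 8 and 8 of the 38 genes had every knockout below every control without controls 1, 2 and 3 (12.1%, 11.7% and 11.7% of all genes), and 13, 9 and 10 without knockouts 1, 2 and 3 (18%, 15.5% and 12.9% of all genes). With fewer libraries, more genes of any kind have no overlap. These counts were added after the data were seen. A common biological coefficient of variation of 0.817 over 3 libraries a group limits what this design can call.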
